A study of Oryctolagus cuniculus with 8 samples.

Results

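Cytokines, chemokines and adhesion molecules are the signals and holds by which leukocytes and resident macrophages are called into a tissue, and 10 such genes were followed in the retina of rabbits kept on 4 diets. The members were the adhesion molecules VCAM1 and ICAM1, the chemokines CCL2, CXCL12 and CXCL13, the macrophage growth factor CSF1, and the cytokines IL1B, IL6, IL18 and TNF. They were chosen by symbol, as the rows of the expression table that carry these names. Of the 10 members 9 had a row among 25666 genes, and CXCL12 was not analysed here. 4 members (VCAM1, ICAM1, CSF1 and CXCL13) reached at least 1 FPKM in at least 2 libraries, the filter for testing, which 12204 of 19293 protein-coding genes passed. FPKM is the number of sequenced fragments on a gene, scaled to the length of the gene and to the depth of the library. The other 5 members (CCL2, IL1B, IL6, IL18 and TNF) stayed below that level.

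RNA came from 8 retinas of male wild-type Chinchilla rabbits about 10 months old, 2 retinas from each diet after 6 months of feeding. ND-fed rabbits received standard chow. The HFD held 10% lard and 0.5% cholesterol, the HSD held 40% sucrose, and the HFSD held both kinds of addition, with lard at 10%, cholesterol at 0.5% and sucrose at 35%. The labels do not say whether the 2 retinas of a diet came from separate animals. The p values rest on the spread between these retinas, which may be partly technical. If both came from 1 animal, that spread would leave out differences between animals, and the p values would be too low. Diet could then not be told apart from animal. The design asks how a diet rich in fat, in sugar or in both changes the retinal transcriptome. For the genes of this family it gives 6 comparisons. These are each diet against ND, the sucrose diets (HSD and HFSD) against the diets without sucrose (ND and HFD), the lard diets (HFD and HFSD) against the diets without lard (ND and HSD), and the interaction of fat and sucrose.

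In a healthy retina, immune cells are scarce. Microglia, the resident macrophages, live on signals through CSF1R, the receptor shared by CSF1 and IL34. When endothelium or glia are activated through the NF-κB pathway, typically by TNF or IL1B, they display VCAM1 and ICAM1, which are bound by integrins on leukocytes. CCL2 attracts monocytes, CXCL12 signals through CXCR4 and ACKR3, and CXCL13 attracts B cells through CXCR5. IL1B and IL18 are made as precursors and are cut into their active forms by inflammasomes, and IL6 signals through IL6R together with IL6ST.

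The FPKM values of a gene fell on steps of whole fragments, which gave the number of fragments behind each value. The fragments summed over genes ran from 15212653 to 22271072 per library, and 1 fragment on a gene of 1 kilobase was worth 0.0439 to 0.0634 FPKM. Intervals below are exact 95% Poisson intervals of the fragments, and they cover counting error only. The 2 retinas of every diet differed by far more than counting error, with a chi-square per gene of 16.6 to 51.8. HSD replicate 2 stood apart by its muscle transcripts, where 7 muscle markers summed to 439 FPKM against at most 1.01 FPKM in any other library. ND replicate 1 stood apart by its early response genes, whose 6 markers summed to 2049 FPKM against at most 693 FPKM elsewhere. That library also had the highest sums of astrocyte (1151 FPKM), myelin (699), red blood cell (82.6) and mural cell markers (21.3). HFD replicate 1 came next for astrocyte (976 FPKM), myelin (467) and red blood cell markers (73.3), while ND replicate 2 had 401, 95.7 and 8.12 FPKM. ICAM1, CSF1 and CSF1R, given below, were also highest in ND replicate 1, and the part of these tissues was not tested. Rod markers were by far the most abundant of the marker lists in all 8 libraries, with sums from 29084 to 40705 FPKM, so the defining markers of the labelled tissue were present.

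The members were weakly expressed. By mean FPKM over the 8 retinas, the order was VCAM1 (3.69 ± 1.82 FPKM, s.d., n = 8), CXCL13 (1.26 ± 1.09), ICAM1 (0.845 ± 0.391), CSF1 (0.810 ± 0.399), IL18 (0.152 ± 0.223), IL1B (0.106 ± 0.0871), CCL2 (0.0659 ± 0.0865), TNF (0.0493 ± 0.0527) and IL6 (0.0115 ± 0.0213). VCAM1 was the highest member in 6 of 8 libraries, and CXCL13 was higher in ND replicate 2 and HSD replicate 2. Every neighbouring pair in this order overlapped over the 8 retinas. Even VCAM1 was in the lower part of the transcriptome, with a mean above that of 48.7% of protein-coding genes. The corresponding share was 37.3% for CSF1 and 18.1% for IL6. The genes around the members were not all weak. Of 15 signalling genes downstream of these receptors 13 had a mean of at least 5 FPKM, among them JAK1, a kinase of cytokine receptors (51.2 FPKM), and STAT3, the transcription factor that it activates (28.3 FPKM). Of 13 other cytokines and growth factors 10 had a mean under 1 FPKM, while IL34, the other ligand of CSF1R, had 32.4 ± 4.82 FPKM. Of 10 other chemokines 8 had a mean under 1 FPKM, while CX3CL1, a chemokine of neurons that is received by microglia, had 17.2 FPKM. IL34, CX3CL1, JAK1 and STAT3 were chosen as examples after their values were seen.

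**Figure D1:**
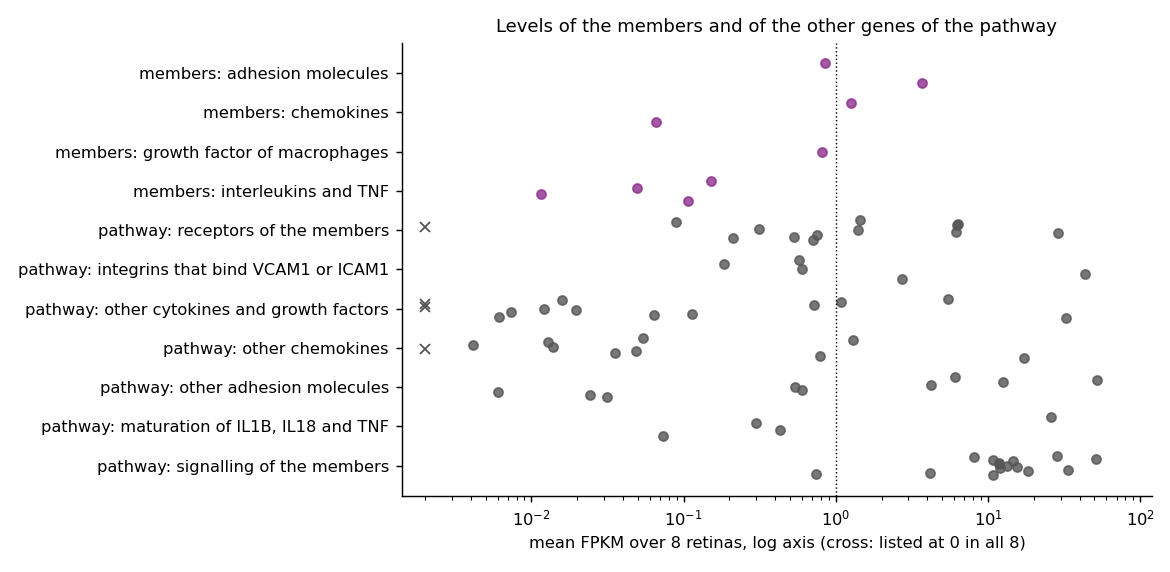
Mean FPKM over 8 retinas (horizontal, log axis) of the 9 members with a row (purple) and of 69 other genes of the pathway (grey), each point 1 gene and each row 1 list; crosses stand for genes listed at 0 in every library and the dotted line marks 1 FPKM. 7 of the 9 members lie under 1 FPKM, whereas 14 of the 15 signalling genes lie above it.

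No member passed the test in any of the 6 comparisons. limma was fitted to log2(FPKM + 1) of all 8 libraries with 1 mean per diet, and the Benjamini-Hochberg adjustment covered the 12204 genes tested. At an adjusted p under 0.05, 0 of 4 members were called in HFD, HSD and HFSD against ND, against 0.00819%, 0.0574% and 0.0164% of all genes tested. 0 of 4 were called for sucrose, for fat and for their interaction, where the background was 0.344%, 0.00819% and 0.00819%. At an unadjusted p under 0.05, 0 members passed in HFD, 0 in HSD and 2 in HFSD (VCAM1 higher, CSF1 lower), against 4.31%, 7.2% and 8.07% of all genes. CSF1 entered the test only through retinas without sucrose, so its part in these counts is a description. For sucrose 1 member passed (CSF1 lower), for fat 1 (VCAM1 higher) and for the interaction 0, against 18.3%, 3.2% and 3.74% of all genes. These counts turned on single retinas. In HFSD the count was 0 without either HFSD retina and 1 without ND replicate 1, and for fat it was 0 without any of the ND, HFD or HFSD retinas. For sucrose it was 2 without ND replicate 1 or HSD replicate 2, and without HSD replicate 1 it was 1 in HSD and 1 for the interaction. The voom alternative on whole fragments also called 0 members at an adjusted p under 0.05 in each comparison. A fold change on the log2(FPKM + 1) scale understates the change of genes as low as these.

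The study chose changed genes without a test, by the ratio of FPKM in a diet to FPKM in the control, each with 1 added, and by limits of 0.65 and 1.54. How replicates entered that ratio is not stated, so the ratio of the means of 2 retinas used here is 1 reading of the rule and need not select the same genes. The 5 members below the filter had ratios of 0.856 to 1.21, since an added 1 outweighs such low values, and they could hardly have passed. Of the other 4 members 0 passed in HFD, where 1.38% of the genes tested passed as higher and 1.16% as lower. In HSD 0 of 4 passed, where the background was 1.76% higher and 3.54% lower. In HFSD 3 of 4 passed, where the background was 1.52% higher and 3.54% lower. VCAM1 was the higher one, with a ratio of 1.92. CXCL13 and CSF1 were the lower ones, with ratios of 0.489 and 0.632, and ICAM1 stayed inside at 0.696. CXCL13, CSF1 and ICAM1 reached 1 FPKM in no HFSD retina and met the filter only through retinas of other diets. A lower value in HFSD was therefore favoured by the filter, so these ratios and the count of 3 are descriptions, and nothing is read from them against the background. The ratio of CSF1 was 0.697, inside the limits, without ND replicate 1. That of CXCL13 was 0.907 without ND replicate 2. That of ICAM1 passed the lower limit without ND replicate 2 (0.573) and without HFSD replicate 2 (0.551).

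VCAM1 is a cell adhesion molecule that holds leukocytes carrying the integrin of ITGA4 and ITGB1. It measured 2.997 and 2.65 FPKM with ND, 3.12 and 2.88 with HFD, 4.06 and 1.16 with HSD, and 6.58 and 6.11 with HFSD. Both HFSD retinas were thus above all 6 other retinas, as for 5.55% of all genes tested (4.28% were below all 6), and the ND and HFD retinas lay close together, while HSD held both the highest and the lowest value outside HFSD. These values rest on 153 fragments in HSD replicate 2, the lowest library, and on 1145 fragments in HFSD replicate 1, so that counting error was small (95% interval 6.20 to 6.97 FPKM in the latter). The share of all genes tested whose HFSD retinas both lay above both ND retinas was 21.6%.

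Against ND, the log2 difference of VCAM1 in HFSD was 0.94 (SE 0.351, 95% interval 0.12 to 1.77, adjusted p = 0.581 by limma). In HFD it was 0.07 (SE 0.351, adjusted p = 0.998 by limma). In HSD it was -0.21 (SE 0.351, adjusted p = 0.920 by limma), and leaving out HSD replicate 2 turned it to 0.41 while leaving out HSD replicate 1 gave -0.82. The interaction of fat and sucrose asks whether the HFSD difference exceeds the sum of the HFD and HSD differences. For VCAM1 it was 1.08 (SE 0.497, 95% interval -0.08 to 2.25, adjusted p = 0.999 by limma), and it was 0.47 without HSD replicate 2 and 1.70 without HSD replicate 1. The difference for fat was 0.61 (SE 0.248, adjusted p = 0.9996 by limma), and it was 0.30 without HSD replicate 2 and 0.92 without HSD replicate 1. Sucrose was 40% in HSD and 35% in HFSD, so the interaction and the difference for fat also include a difference in sucrose dose. The HFSD difference stayed between 0.88 and 1.01 when any retina was left out. Endothelial markers, 12 genes with CDH5 and CLDN5 among them, summed to 167 and 129 FPKM in the HFSD retinas and to 129 to 167 FPKM in the other 6. The sums in HFSD thus covered the same range as elsewhere.

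ICAM1, the ligand of the leukocyte integrins that contain ITGB2, measured 1.54 and 0.638 FPKM with ND, 0.908 and 1.07 with HFD, 0.846 and 0.853 with HSD, and 0.150 and 0.759 with HFSD. The highest and the lowest retina differed by their fragments as well, with 88 in ND replicate 1 and 10 in HFSD replicate 1, the deepest library. Of the 6 other retinas 5 lay between the 2 ND-fed ones, so every diet overlapped with ND. The log2 difference in HFSD was -0.52 (SE 0.300, 95% interval -1.22 to 0.18, adjusted p = 0.693 by limma), and it was -0.84 to -0.20 when a retina was left out. Under the other alternative settings it was -1.65 to -0.43. In HFD and HSD the differences were -0.04 and -0.14 (SE 0.300 each), with adjusted p values of 0.998 and 0.941 by limma. Both adhesion molecules were thus measured in the same libraries with opposite signs in HFSD, and neither difference passed the test.

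**Figure D2:**
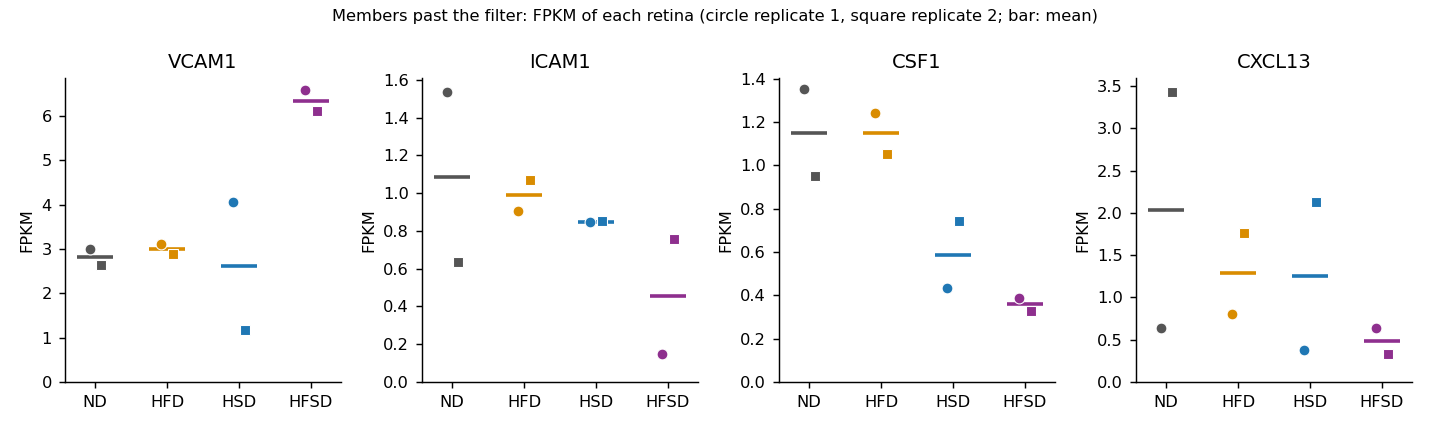
FPKM (vertical, from 0) of VCAM1, ICAM1, CSF1 and CXCL13 in each retina by diet; circles are replicate 1, squares replicate 2 and bars the mean of 2 retinas. Both HFSD retinas stand above all others for VCAM1 (6.58 and 6.11 FPKM), as for 5.55% of genes tested. The 4 retinas of the sucrose diets stand below the 4 others for CSF1, as for 6.48% of genes tested. The replicates of ND are far apart for CXCL13 (0.637 and 3.43 FPKM).

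CSF1, the growth factor on which macrophages depend, was the member whose retinas split by sucrose. It measured 1.35 and 0.949 FPKM with ND, 1.24 and 1.05 with HFD, 0.431 and 0.742 with HSD, and 0.386 and 0.330 with HFSD. All 4 retinas of the sucrose diets were below the 4 retinas without sucrose, a pattern that 6.48% of all genes tested showed in this direction (6.39% in the other). CSF1 reached 1 FPKM in 3 retinas, all without sucrose, and so it entered the test only through the side where it was high, as did ICAM1. The split is therefore a description, and nothing is read from it against that share. These levels rest on 42 to 66 fragments without sucrose and on 13 to 32 fragments with it. The counting intervals of ND replicate 2 (0.684 to 1.28 FPKM) and HSD replicate 2 (0.508 to 1.05 FPKM) overlapped, so that the nearest retinas of both sides could not be told apart at this depth.

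The log2 difference of CSF1 for sucrose was -0.55 (SE 0.156, 95% interval -0.91 to -0.18, adjusted p = 0.162 by limma). Under the alternative settings other than left-out retinas it was -1.32 to -0.49. Since the filter let CSF1 in through the side without sucrose, this test is not independent of the filter. In the fit with no filter on low values the adjusted p was 0.135 by limma. Against ND the differences were -0.44 in HSD (SE 0.221, adjusted p = 0.755 by limma) and -0.66 in HFSD (SE 0.221, adjusted p = 0.551 by limma). Under those settings they were -0.99 to -0.35 in HSD and -1.64 to -0.61 in HFSD. In HFD the difference was 0.00 (SE 0.221, 95% interval -0.51 to 0.52, adjusted p = 0.998 by limma). For retinas all lower than ND the background was 19.7% of genes in HSD and 20.6% in HFSD. HSD and HFSD were both compared with the same ND retinas, so these values are not independent of each other.

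CSF1R, the receptor of CSF1, showed the same split. It measured 2.38 and 1.64 FPKM with ND, 2.14 and 1.66 with HFD, 0.583 and 1.12 with HSD, and 0.989 and 1.05 with HFSD. Its 4 retinas on sucrose diets lay below the 4 others, with 31 to 76 fragments against 98 to 157. Of all genes tested 6.48% showed this pattern (6.39% in the other direction). The log2 difference for sucrose was -0.61 (SE 0.165, adjusted p = 0.151 by limma), and the adjusted p ran from 0.121 to 0.371 over the alternatives. Of the pathway genes tested, CSF1R had the largest fall in value against ND both in HSD (-0.71, adjusted p = 0.559 by limma) and in HFSD (-0.56, adjusted p = 0.610 by limma), neither of which passed the test. The rank depended on single retinas, since another gene had the larger fall without either ND retina, without HSD replicate 1 or without HFSD replicate 2. IL34 measured 30.3 and 34.2 FPKM with ND, 40.8 and 35.9 with HFD, 29.3 and 28.5 with HSD, and 25.8 and 34.0 with HFSD. These values overlapped between the diets with and without sucrose. The difference of IL34 for sucrose was -0.26 (SE 0.107, adjusted p = 0.267 by limma), and it was -0.35 to -0.16 when a retina was left out.

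CSF1R is made by microglia, so the other markers of these cells were read beside it. 14 of 15 microglia and macrophage markers had a row and none was at 0 in all libraries. They summed to 58.1 and 42.7 FPKM with ND, 61.3 and 45.7 with HFD, 42.9 and 40.5 with HSD, and 38.5 and 45.7 with HFSD. The sums overlapped between diets with and without sucrose. Such a sum rests mostly on its most abundant markers and does not show whether single markers split. ITGAM and ITGB2, leukocyte integrin chains below the filter, were lower in every sucrose retina than in every other retina. ITGAM had 0.115 to 0.134 FPKM against 0.169 to 0.338, and ITGB2 had 0.383 to 0.438 FPKM against 0.450 to 0.973. Both were picked with their values known, and the integrin chains ITGA4, ITGB1 and ITGAL overlapped. Leukocyte markers, 9 of 12 with a row and 2 past the filter, summed to 6.33 to 10.3 FPKM on the sucrose diets and to 10.4 to 11.1 FPKM without sucrose. Müller cell markers (7 genes) summed to 2582 to 2749 FPKM on the sucrose diets against 3489 to 4728 FPKM, and pigment epithelium markers (13 genes) to 128 to 180 FPKM against 249 to 565 FPKM. RLBP1 was on both of these lists, so their sums are not independent of each other. Cone markers (6 genes) went the other way, with 1208 to 1356 FPKM on the sucrose diets against 686 to 1014 FPKM. The part of these shifts in the CSF1 and CSF1R values was not tested. In whole retinas, fewer cells of a type and less RNA per cell cannot be told apart.

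**Figure D3:**
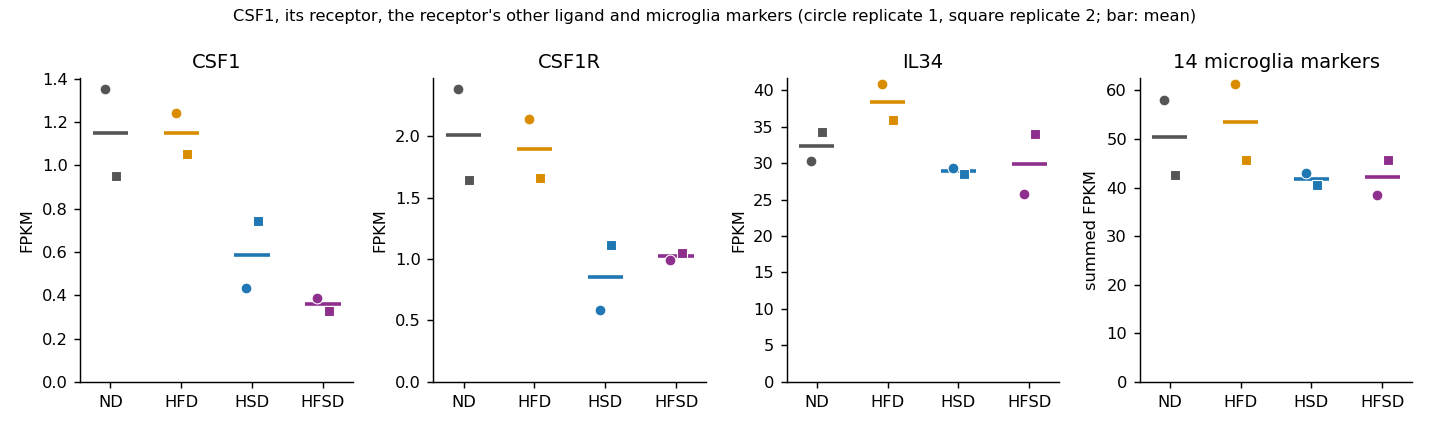
FPKM (vertical, from 0) of CSF1, CSF1R and IL34 and the summed FPKM of 14 microglia markers in each retina by diet; circles are replicate 1, squares replicate 2 and bars the mean of 2 retinas. CSF1 and CSF1R lie lower in the 4 HSD and HFSD retinas than in the 4 of ND and HFD, as for 6.48% of genes tested. IL34 (25.8 to 34.0 FPKM against 30.3 to 40.8) and the microglia sum (38.5 to 45.7 FPKM against 42.7 to 61.3) overlap. The sum does not show whether single markers split.

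CXCL13, the chemokine of B cell follicles, differed widely between the 2 retinas of ND and between those of HSD. It measured 0.637 and 3.43 FPKM with ND, 0.807 and 1.77 with HFD, 0.372 and 2.12 with HSD, and 0.643 and 0.325 with HFSD. These values rest on 17 and 83 fragments in ND and on 8 and 50 in HSD, and the counting intervals of the ND retinas (0.371 to 1.02 and 2.74 to 4.26 FPKM) did not overlap. The spread within ND and HSD was therefore wider than counting error. Both HFSD retinas were low, but ND replicate 1 and HSD replicate 1 were as low. The log2 difference in HFSD was -0.87 (SE 0.548, 95% interval -2.15 to 0.41, adjusted p = 0.717 by limma), and it was -0.15 without ND replicate 2 and -1.59 without ND replicate 1. In HFD and HSD the differences were -0.27 and -0.38 (SE 0.548 each, adjusted p = 0.998 and 0.909 by limma). CXCR5, the receptor of CXCL13, had at most 0.152 FPKM in any library and was listed at 0 in 1.

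**Figure D4:**
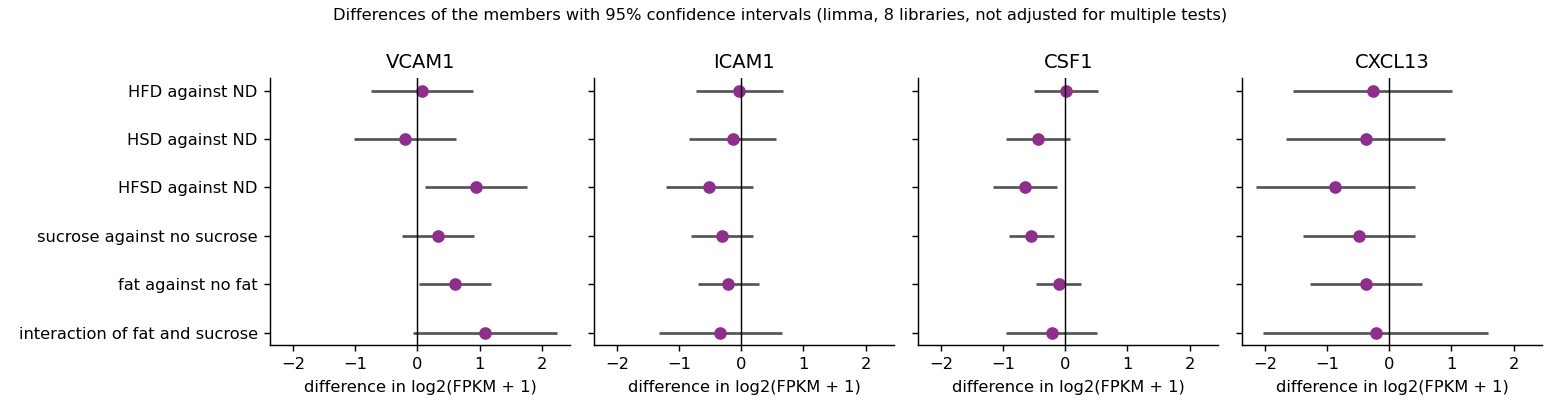
Differences in log2(FPKM + 1) (horizontal) of VCAM1, ICAM1, CSF1 and CXCL13 for the 6 comparisons, from limma over 8 libraries; points are estimates and lines their 95% confidence intervals before adjustment for multiple tests. The intervals leave out 0 for VCAM1 in HFSD (0.12 to 1.77) and for fat, and for CSF1 in HFSD and for sucrose (-0.91 to -0.18), and the intervals of CXCL13 are the widest.

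The remaining 5 members had values that rest on few fragments. IL18, a cytokine of the IL1 family, had 5 and 1 fragments with ND, 2 and 0 with HFD, 1 and 14 with HSD, and 4 and 0 with HFSD. Its highest value, 0.673 FPKM in HSD replicate 2 (95% interval 0.368 to 1.13), stood above the interval of HSD replicate 1 (0.00133 to 0.293). 15 of its 27 fragments were from HSD, and 14 of these from the library with muscle transcripts. The part of that tissue in the value was not tested. IL18BP, the secreted inhibitor of IL18, was abundant by comparison, with a mean of 26.1 FPKM.

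TNF, the cytokine that sets off NF-κB signalling, had 5 and 0 fragments with ND, 4 and 0 with HFD, 0 and 1 with HSD, and 2 and 2 with HFSD. Its highest value was 0.138 FPKM, in ND replicate 1. IL1B, a secreted ligand of the IL1 receptor, had 3 and 2 fragments with ND, 0 and 1 with HFD, 1 and 0 with HSD, and 2 and 3 with HFSD, or 12 in all (95% interval 6.20 to 21.0). CCL2, the attractant of monocytes, had 3 and 1 fragments with ND, 0 and 1 with HFD, 0 and 0 with HSD, and 0 and 1 with HFSD. IL6, a cytokine of the acute phase, had 1 fragment in HFD replicate 1, 1 in HSD replicate 2 and none in the other 6 libraries. IL1B and CCL2 were lower than both ND retinas in both retinas of HFD and of HSD. Among genes below the filter the share lower was 12% in HFD and 11.3% in HSD (8.57% and 13.7% higher). Both genes had at most 3 fragments in any library, so no diet was singled out at this depth.

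Where a library listed 0, the fragments still allowed some expression. The limit that a count of 0 allows was taken as 3 fragments, a one-sided bound, and was 0.114 to 0.165 FPKM for IL6, 0.213 to 0.308 FPKM for CCL2 in the 4 libraries at 0 and 0.0893 to 0.103 FPKM for TNF in the 3 libraries at 0. It was 0.136 and 0.158 FPKM for IL18 in HFD replicate 2 and HFSD replicate 2, and 0.194 and 0.224 FPKM for IL1B in HFD replicate 1 and HSD replicate 2. The exact Poisson interval, which is two-sided, reaches 3.69 fragments for a count of 0, or up to 0.203 FPKM for IL6, 0.379 FPKM for CCL2, 0.127 FPKM for TNF, 0.194 FPKM for IL18 and 0.276 FPKM for IL1B. An absence of these transcripts was not shown. No fitted fold change is given for these members: apart from IL18 in HSD replicate 2, their values lay at or near such limits, and the ratios with 1 added, given above, mostly reflect the added constant. When limma was fitted without the filter on low values, 0 of these 5 members were called in each comparison, and the lowest adjusted p was 0.442, for CCL2 and sucrose. Without adjustment, a p under 0.05 was reached by 0 of them in HFD, by 1 in HSD (CCL2), by 0 in HFSD, for sucrose and for fat, and by 1 for the interaction (IL1B). Among all 16404 genes of that fit the share was 6.93% in HSD and 4.13% for the interaction. CCL2 had 0 fragments in both HSD libraries and 4 with ND, and IL1B at most 3 in any library, so nothing is read from these p values.

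**Figure D5:**
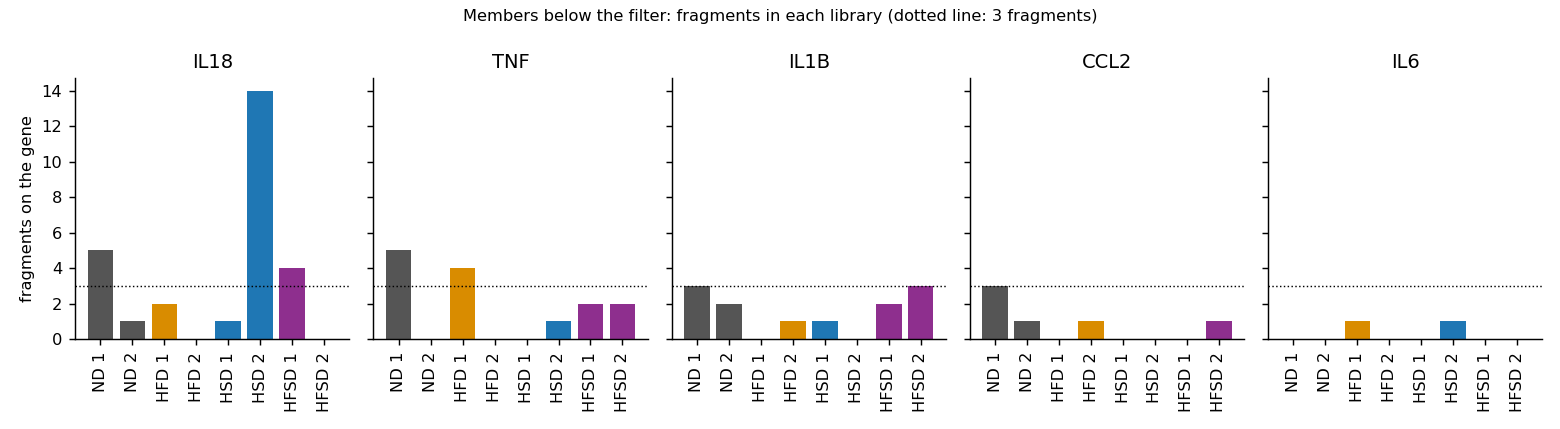
Fragments (vertical, from 0) on IL18, TNF, IL1B, CCL2 and IL6 in each of the 8 libraries, coloured by diet, with 3 fragments as a dotted line. 14 fragments on IL18 in HSD replicate 2 are the highest bar, and no other bar exceeds 5.

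The receptors of the members were read as a list, in which 13 of 14 had a row and 7 passed the filter. IL6ST, the signalling chain shared by the IL6 family, was the most abundant, with a mean of 28.7 FPKM. TNFRSF1A, the main TNF receptor of most tissues, had 6.14 FPKM, and the CXCL12 receptors CXCR4 and ACKR3 had 6.28 and 6.38 FPKM. TNFRSF1B, the TNF receptor typical of immune cells, had 1.39 FPKM and IL6R had 0.755 FPKM. IL1R1, IL1R2, IL1RAP, IL18R1 and CXCR5 were below the filter at 0.0891 to 0.712 FPKM, IL18RAP was listed at 0 in all 8 libraries, and CCR2, the CCL2 receptor, was not analysed here. Receptors of TNF and of the IL6 family were therefore measured at higher levels than TNF and IL6, on the FPKM scale that accounts for gene length.

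IL18R1, the binding chain of the IL18 receptor, lay below the filter and was higher than with ND in all 6 retinas of the other diets. It measured 0.159 and 0.0441 FPKM with ND, 0.195 and 0.534 with HFD, 0.470 and 0.271 with HSD, and 0.342 and 0.470 with HFSD, on 8 and 2 fragments with ND and 10 to 25 elsewhere. The counting intervals of ND replicate 1 (0.0689 to 0.314 FPKM) and HFD replicate 1 (0.0937 to 0.359 FPKM) overlapped. Of the 4200 genes below the filter with some value above 0, 1.57% were higher in all 6 retinas. IL1R2, the decoy receptor of IL1, had 4 and 1 fragments with ND, 10 and 6 with HFD, 8 and 10 with HSD, and 2 and 9 with HFSD, so that HFD and HSD lay above ND and HFSD overlapped with it. Both were singled out after their values were seen, so their values are descriptions.

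None of the 7 receptors passed the test. IL6ST measured 29.2 and 24.7 FPKM with ND, 21.0 and 25.6 with HFD, 33.7 and 28.4 with HSD, and 33.1 and 34.2 with HFSD. The values on sucrose diets lay mostly above the others, with a small overlap between ND replicate 1 and HSD replicate 2. The log2 difference for sucrose was 0.36 (SE 0.104, adjusted p = 0.165 by limma). TNFRSF1A measured 6.92 and 6.06 FPKM with ND, 7.21 and 6.63 with HFD, 5.40 and 5.72 with HSD, and 5.78 and 5.43 with HFSD. All 4 sucrose retinas were below the 4 others, as for 6.48% of genes tested. The log2 difference was -0.22 (SE 0.0945, adjusted p = 0.269 by limma). CXCR4 ranged from 1.85 FPKM in HFD replicate 2 to 9.80 FPKM in HFSD replicate 2, and its difference for sucrose was 0.67 (SE 0.293, adjusted p = 0.281 by limma). When a retina was left out, this difference was 0.38 to 0.96. ACKR3, IL6R and TNFRSF1B had differences of -0.18, -0.06 and 0.05 for sucrose, each with an adjusted p of at least 0.545 by limma. That of ACKR3 was -0.34 to -0.013 when a retina was left out.

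Over all lists of the pathway, 69 of 82 genes had a row and 37 passed the filter. None of the 37 was called in any of the 6 comparisons. Without adjustment, 1 of the 37 reached a p under 0.05 in HFD, 2 did so in HSD, 3 in HFSD and 9 for sucrose (4 higher and 5 lower), and none did for fat or for the interaction. The shares of all genes tested were 4.31%, 7.2%, 8.07% and 18.3% in the first 4 of these comparisons. The gene in HFD was JAM2, an adhesion molecule of cell junctions, with 51.6 and 57.4 FPKM in ND and 40.5 and 43.1 in HFD, a log2 difference of -0.37 (adjusted p = 0.998 by limma). Both HFD retinas were below both ND retinas, as for 13.3% of genes tested (12.5% in the other direction). The 2 genes in HSD were CSF1R and ITGB1, and HFSD had the same 2 and REL. ITGB1, the β1 chain of the integrin that binds VCAM1, had log2 differences of -0.49 in HSD and -0.51 in HFSD, with adjusted p values of 0.599 and 0.558 by limma. When a retina was left out, these differences were -0.66 to -0.32 in HSD and -0.71 to -0.31 in HFSD. JAM2 and ITGB1 were chosen after their values were seen.

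REL, a subunit of NF-κB, had the largest rise in value among the pathway genes tested in both sucrose diets. It measured 2.59 and 3.56 FPKM with ND, 3.32 and 3.88 with HFD, 3.60 and 5.64 with HSD, and 4.71 and 6.09 with HFSD. The retinas of HSD and of HFSD were all above both of ND, as for 19.3% and 21.6% of the genes tested. The log2 differences were 0.45 in HSD (adjusted p = 0.762 by limma) and 0.66 in HFSD (SE 0.231, adjusted p = 0.564 by limma). The HSD difference was 0.19 without HSD replicate 2, the library with muscle transcripts, and 0.28 without ND replicate 1, and in both cases another gene had the larger rise. In HFSD REL lost this rank without ND replicate 1. In HFD the largest rise was that of IRAK1, a kinase of IL1 receptor signalling (0.26, SE 0.140), and the largest fall that of CXCR4 (-0.66, SE 0.414), both with an adjusted p of 0.998 by limma. The fall of CXCR4 in value rests on HFD replicate 2, without which it was -0.08, and it was -0.31 without ND replicate 1 and -1.25 without HFD replicate 1. CXCR4 lost its rank without HFD replicate 2 or ND replicate 1, and IRAK1 lost its own without any of the ND or HFD retinas.

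The 37 pathway genes were split between both directions. Their median log2 difference was -0.07 in HFD (14 higher and 23 lower), -0.02 in HSD (17 and 20), -0.07 in HFSD (15 and 22) and 0.05 for sucrose (19 and 18). The medians of all genes tested lay between -0.01 and 0.01. For retinas without overlap between sucrose and no sucrose, 3 of 37 pathway genes were lower (CSF1R, TNFRSF1A and NFKBIB, an inhibitor of NF-κB) and 2 were higher (IKBKB, a kinase that acts on such inhibitors, and CNTF, a neurotrophic cytokine). All 5 but CSF1R and TNFRSF1A were named after their values were seen, and the background was 6.48% lower and 6.39% higher. CNTF measured 3.67 to 5.37 FPKM without sucrose and 5.60 to 6.65 FPKM with it, a log2 difference of 0.38 (SE 0.108, adjusted p = 0.161 by limma). Of 28 pathway genes below the filter with some value above 0, 2 were lower in all 4 sucrose retinas and 0 were higher, where the background among the 4200 such genes was 2.02% lower and 1.98% higher. These were ITGAM and ITGB2, chains of the leukocyte integrin that binds ICAM1. ITGAM measured 0.115 to 0.134 FPKM with sucrose and 0.169 to 0.338 FPKM without, on 16 to 53 fragments. ITGB2 measured 0.383 to 0.438 FPKM with sucrose and 0.450 to 0.973 FPKM without. Against ND, 4 of the 28 were higher and 3 lower in both HFD retinas (background 8.57% and 12%), 4 higher and 6 lower in both HSD retinas (13.7% and 11.3%), and 2 higher and 3 lower in both HFSD retinas (12.5% and 13.2%). For fat, no member separated the 4 lard retinas from the 4 others, while 0.68% of genes tested were higher and 0.664% lower in all 4.

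For each tested member the 3 genes with the most similar profile were sought among protein-coding genes with a symbol. The measure was the root mean square difference of log2(FPKM + 1) around the gene's own mean over the 8 libraries, where 0 is an identical profile. Nearest to CSF1 were UBALD1 (0.0853), SLC12A4 (0.0949) and AK3 (0.0960), against a spread of CSF1 itself of 0.304. UBALD1 measured 33.9 to 40.5 FPKM without sucrose and 22.6 to 28.2 FPKM with it, and SLC12A4 measured 4.73 to 5.09 and 2.71 to 3.52 FPKM. Nearest to VCAM1 were F2 (0.300), BANF2 (0.309) and SLC18A2 (0.312), which left much of its spread of 0.539 unmatched. Nearest to CXCL13 were SYNPO2 (0.276), PGM2 (0.287) and STEAP1 (0.294), against its spread of 0.588. PGM2 measured 5.23 and 22.7 FPKM with ND, 8.82 and 20.5 with HFD, 7.12 and 19.2 with HSD, and 8.77 and 5.25 with HFSD. It was thus high in the same 3 retinas as CXCL13. Nearest to ICAM1 were CTNNAL1 (0.113), NSUN3 (0.137) and USP54 (0.137), against its spread of 0.303. These likenesses are descriptions over 8 libraries and carry no test.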

How the data were processed

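The authors sequenced retinal RNA (TRIzol, TruSeq, HiSeq), checked reads with FastQC, mapped them with TopHat2, discarded multi-mapped reads and computed FPKM with their own script. The genome build and annotation are not given in the sources used here. The deposited table holds FPKM per library, although its name speaks of counts, so a count model was not used. 0 value columns lacked a sample. Fragments were recovered from the FPKM steps as the smallest whole numbers that fit within 0.02, for 20060 of 20061 genes with a value, so true numbers could be multiples of them. limma 3.58.1 (R 4.3.3, trend, moderated variances) was fitted to log2(FPKM + 1) of the protein-coding genes that reached 1 FPKM in 2 or more libraries, in 1 model of 4 diets, with Benjamini-Hochberg adjustment. It was tested on simulated data. Only genes with more fragments than CSF1, CXCL13 and ICAM1 were changed there, by more than any tested member differed. That test therefore does not show how well changes of such members would be found. Alternatives changed the pseudocount, filter, scaling, model or libraries. Genes named by rule were the members, their receptors, per diet the tested pathway gene with the largest rise and fall, and 3 genes most like each tested member. The other pathway genes named, ITGAM, ITGB2 and IL18BP among them, were picked outside these rules with their values known. Members, lists and rules were chosen with earlier results of these data known.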

Additional observations from a re-analysis of the deposited data

How the results depend on the processing

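No member and no pathway gene was called in any comparison under any alternative, with a lowest adjusted p of 0.120 among the members and 0.105 among the pathway genes (limma). The replicate numbers did not pair the retinas (correlations of deviations between -0.165 and 0.0813 over 6 pairs of diets), and with a replicate block 0 members and 0 pathway genes were called in each comparison. Among all genes, calls for sucrose went from 42 to 25 with the replicate block, to 18 with voom and to 8 without the filter on low values, and ranged from 4 to 82 when a retina was left out. The stricter filter (a mean of at least 1 FPKM) removed ICAM1 and CSF1 from testing.

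The fold rule depended on the added constant. With 0.1 in place of 1, the members that passed numbered 4 for HFD, 5 for HSD and 5 for HFSD, and with 0.01 they numbered 5, 7 and 6. The shares of all protein-coding genes past the limits rose from 1.76%, 3.95% and 3.43% to 7.95%, 12% and 11.1% with 0.1, and to 14.4%, 18.2% and 17.6% with 0.01. Among the 4200 genes below the filter with some value above 0, which include the 5 low members, they were 51%, 57.8% and 55.3% with 0.01. When a retina was left out, 0 to 1 members passed in HFD, 0 to 1 in HSD and 2 to 4 in HFSD.

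Signs were tied to single retinas for 9 of 43 log2 differences examined. Over the left-out retinas the range was -0.13 to 0.14 for CSF1 in HFD, -0.99 to 0.45 for CXCL13 in HFD, -1.10 to 0.34 for CXCL13 in HSD, -0.94 to 0.50 for the interaction of CXCL13, -0.35 to 0.28 for ICAM1 in HFD, -0.46 to 0.18 for ICAM1 in HSD and -0.82 to 0.41 for VCAM1 in HSD. For sucrose it was -0.28 to 0.16 for IL6R and -0.042 to 0.15 for TNFRSF1B. FPKM rescaled to summed fragments gave -0.0052 for CSF1 in HFD. The causes were not tested.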
